A study of Sus scrofa with 5 samples.

Results

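A miRNA is cut from a hairpin precursor, whose 5p and 3p arms form a short duplex. As a rule 1 strand of the duplex is loaded into an Argonaute protein and kept, while the other is degraded, so that the reads of a hairpin mostly come from its leading arm. The arms carry different seeds, the short stretch that pairs with target mRNAs, and the arm in use therefore sets which mRNAs a hairpin can act on. Some hairpins keep both arms, and for some of them the leading arm is known to differ between tissues.

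The 5p share, the reads of the 5p arm as a percentage of the reads of both arms, was examined for 26 pig miRNA stems. The rule that chose them used names: both a -5p and a -3p name in the table of reported miRNAs, a number of at most 3 digits, and not among the families left out by number, such as let-7, miR-30, miR-199 and miR-423. The 26 stems hold 52 of the 411 mature names in the table, which has 78 stems with both arms named. Values of all 78 stems are given as background.

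Small RNA libraries came from 4 cell types of the pig. BL_1 and BL_2 were blastocysts (BLs) at day 7 after parthenogenetic activation, in which oocytes develop without sperm. The ES-like cells were an embryonic stem cell-like line derived from blastocysts, kept on mouse embryonic fibroblast feeders with SCF and bFGF. The PEBs were embryoid bodies made from these ES-like cells in hanging drops without cytokines, and the PFFs were fibroblasts of fetuses from which head, limbs and internal organs had been removed. Only BLs were sequenced as 2 libraries, and the remaining cell types as 1 each, which leaves no replicate check among the 3 cultured libraries. How many embryos a BL library held and whether the libraries shared an embryo batch is not given in the sources used here, so p-values measure only the spread between these libraries.

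Mature miRNA reads ranged from 113743 in BL_1 to 27071931 in PFFs. The totals of the ES-like and PFF columns stand the other way round in the read summary that came with the study, and the columns were taken by their titles. Among the 5 pluripotency-associated miRNAs, miR-371-5p was at 324635 RPM (reads scaled to the mature miRNA reads of the library, per 1e6) in BL_1 and 296148 in BL_2 against at most 30.9 in the cultured libraries. The other 4 were highest in the ES-like library, such as miR-363 with 41258 RPM against 422 and 331 in BLs, 10404 in PEBs and 280 in PFFs. Of the 5 fibroblast-associated miRNAs, miR-21 made up most of the reads, with 38578, 69981, 154848, 188743 and 522808 RPM from BL_1 to PFFs, and miR-143-3p was at 17.6 and 60.4 RPM in BLs against 13226, 17917 and 101507. All 5 were higher in each cultured library than in BLs, while miR-199a-3p was higher in PEBs (80420 RPM) than in PFFs (52517 RPM). BLs were higher in miR-205, the only epithelial marker of 4 in the table, with 4748 and 5753 RPM against at most 71.7. miR-122 of the liver was at 101004 RPM in the ES-like library and 54096 in PEBs, against 4.14 in PFFs. The part of these differences in the arm shares was not tested, and in whole libraries fewer cells of a type and fewer reads per cell cannot be told apart.

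The 26 stems held from 1.81% of the mature reads in PFFs to 3.26% in ES-like cells. A stem needed at least 50 reads of both arms together for its share to be counted in a library. In BL_1 only 8 of the 26 did, against 22 in BL_2, 22 in the ES-like library, 23 in PEBs and 24 in PFFs. The 8 stems with 50 reads in every library were miR-22, miR-28, miR-92b, miR-140, miR-151, miR-361, miR-425 and miR-532. Intervals are 95% exact binomial (Clopper-Pearson) intervals and cover counting error only, since PCR-amplified reads are not independent molecules. Where an arm had 0 reads, the share that 3 reads would make is given as the limit, beside the upper bound of the exact interval where a comparison turns on it.

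The 5p arm led in 12 of 22 stems in BL_2, 10 of 22 in the ES-like library, 10 of 23 in PEBs and 11 of 24 in PFFs. Over all stems with both arms named the share led by 5p was 54.2%, 54.7%, 54.5% and 57.6% in these libraries. In BL_1 it was 2 of 8, against 40% of all. The median share of the leading arm lay between 92.4% in ES-like cells and 94.6% in BL_2, and between 95.6% and 97.5% over all stems with both arms named. Of the 24 stems of PFFs, 12 had a minor arm under 5% of the reads and 9 a minor arm over 20%. The first count was 4, 11, 9 and 10 in BL_1, BL_2, ES-like cells and PEBs. The second was 1, 4, 6 and 7 in the same order.

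**Figure D1:**
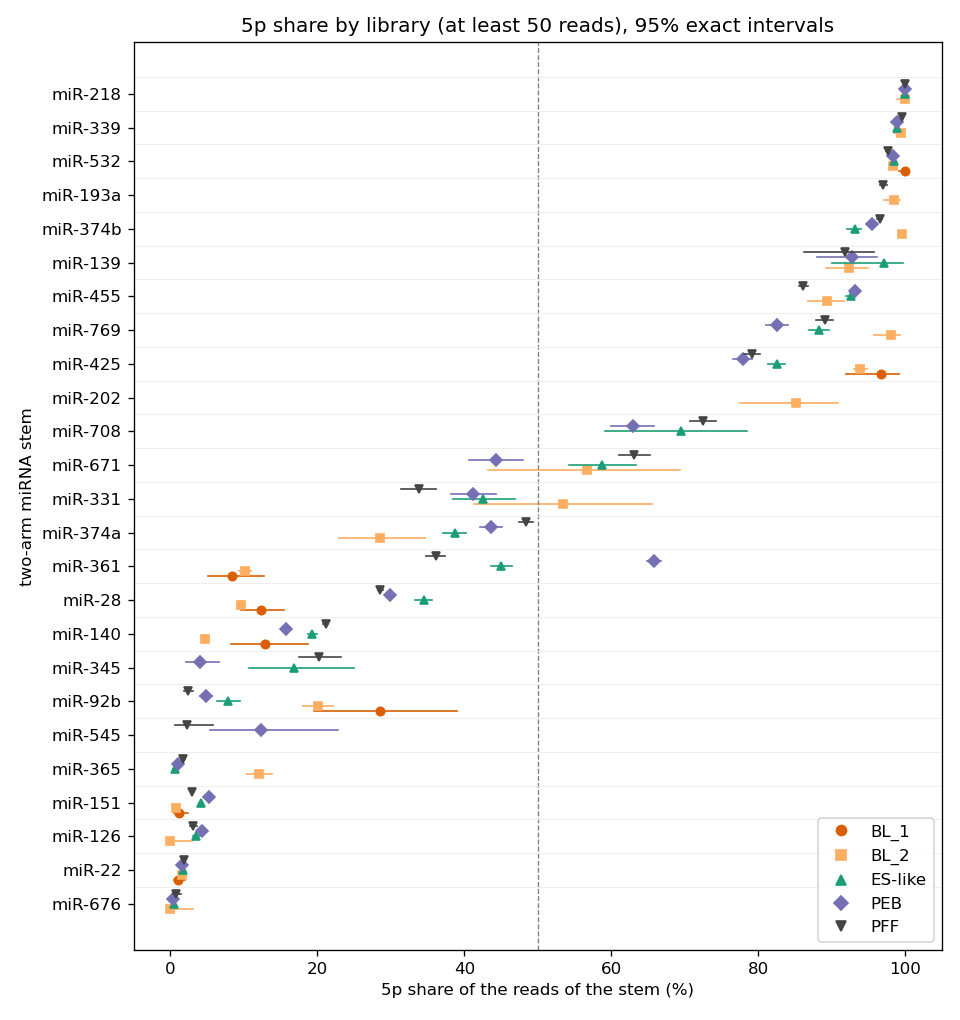
The horizontal axis gives the 5p share of the reads of each stem in percent and each row is a stem; points are libraries with at least 50 reads, and bars are 95% exact intervals, drawn on reads summed over precursors. Some stems sit near 0 or 100% and others in between, and miR-361 runs from 8.33% in BL_1 to 65.8% in PEBs. The BL points of miR-28, miR-92b, miR-361 and miR-425 stand apart from those of the cultured libraries.

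Stems used almost from a single arm included miR-22, which had the most reads of the stems examined over all libraries together. miR-22, a widely expressed miRNA, had 774 reads of its 3p arm in BL_1, 11884 in BL_2, 64855 in the ES-like library, 155688 in PEBs and 186771 in PFFs, and its 5p share was 1.02%, 1.57%, 1.69%, 1.59% and 1.82%. The BL shares were the lowest, but the intervals of BL_1 (0.443 to 2.01%) and BL_2 (1.35 to 1.80%) overlapped those of all 3 cultured libraries. miR-532, of an X-linked cluster with miR-500 and miR-362, was used from its 5p arm in all libraries, with 5p shares of 100%, 98.4%, 98.5%, 98.4% and 97.6%. BL_1 had 0 of 399 reads on the 3p arm of miR-532, which allows a 3p share of up to 0.752% (exact upper bound 0.92%). The 5p arm of miR-339 held from 98.9 to 99.5% of the reads in the 4 libraries with 50 reads.

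miR-218, whose gene RefSeq places inside SLIT2, an axon guidance gene, had no 3p read in any library. On a single precursor it had 115 5p reads in BL_2, 4946 in the ES-like library, 18122 in PEBs and 4158 in PFFs, so that the 3p share could be up to 2.61%, 0.0607%, 0.0166% and 0.0722%. miR-676, placed inside EDA, was used from its 3p arm. Its 5p share was 0.470% in the ES-like library, 0.313% in PEBs and 0.818% in PFFs, with overlapping intervals on the reads of a single precursor, and BL_2 had 0 of 60 5p reads, which allows up to 5.00% (exact upper bound 5.96%). Summed over its precursors, the 3p level of miR-676 was 2061 RPM in the ES-like library, 282 in PEBs, 44.8 in PFFs and 43.1 in BL_2.

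The comparison that the study drew, of pluripotent (BLs and ES-like cells) with differentiated libraries (PEBs and PFFs), was made on the ratio of the arms. edgeR's quasi-likelihood test was fitted to the 5p and 3p counts with a term for each library, so that depth and the level of the stem cancel. 70 stems, 24 of the 26 among them, had at least 10 reads in at least 3 libraries. No stem passed a Benjamini-Hochberg adjusted p of 0.05 (0 of 70, 0%), and 2 of the 70, 1 of them among the 24, had an unadjusted p under 0.05. DESeq2 and limma gave 0 calls as well. miR-92b had the lowest p of the 24, with a log2 5p to 3p ratio higher by 2.52 in the pluripotent libraries (standard error 1.26, unadjusted p = 0.0467, adjusted p = 0.922 by edgeR). For miR-361 the ratio fell by 2.40 (standard error 1.31, adjusted p = 0.922 by edgeR). Without the ES-like library, 12 stems and 5 of those tested here passed (miR-92b, miR-151, miR-361, miR-365 and miR-425), and the comparison was then one of BLs with PEBs and PFFs.

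The BLs were also compared with the 3 cultured libraries by the same kind of test, in a fit of its own. In this comparison 9 of the 24 stems changed (37.5%), against 20 of all 70 (28.6%). The share of the 5p arm was higher in BLs for miR-92b, miR-365, miR-374b, miR-425 and miR-769, and lower for miR-28, miR-126, miR-151 and miR-361. Over all 70 stems, 15.7% were called with a higher and 12.9% with a lower 5p share in BLs. In 7 of the 9 the arm with the larger mean share over the cultured libraries held a larger share still in BLs, and the exceptions were miR-92b and miR-365, whose minor 5p arm held a larger share in BLs than in the cultured libraries. miR-361 is among the 7 with a cultured mean 5p share of 49%, although PEBs were led by the other arm. Over all 20 called stems this split was 12 to 8. The median size of the change was 2.25 on the log2 scale for the 24 stems and 2.25 for all 70. The study reported that miRNAs made up a smaller part of the small RNAs in both BLs than in each cultured library. It also reported a length peak at longer reads in BLs. The part of these library differences in the arm ratios was not tested.

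The calls were not kept without BL_2. In edgeR's test 0 of the 24 stems passed without it (0 of all 68 tested), with 7 of the 24 and 13 of the 68 under an unadjusted p of 0.05. Without BL_1 6 of the 24 passed (12 of all 69), of which 5 were among the 9 and the other was miR-140. The log2 differences of miR-28, miR-92b, miR-361 and miR-425 came to -1.67, 3.07, -3.40 and 2.90 without BL_2, against -1.88, 2.71, -3.22 and 2.29 with both. That of miR-365 fell to 2.07 from 3.32, on 1 5p read in BL_1. For miR-374b and miR-769 no size can be given without BL_2, since BL_1 had 0 reads of their 3p arms.

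**Figure D2:**
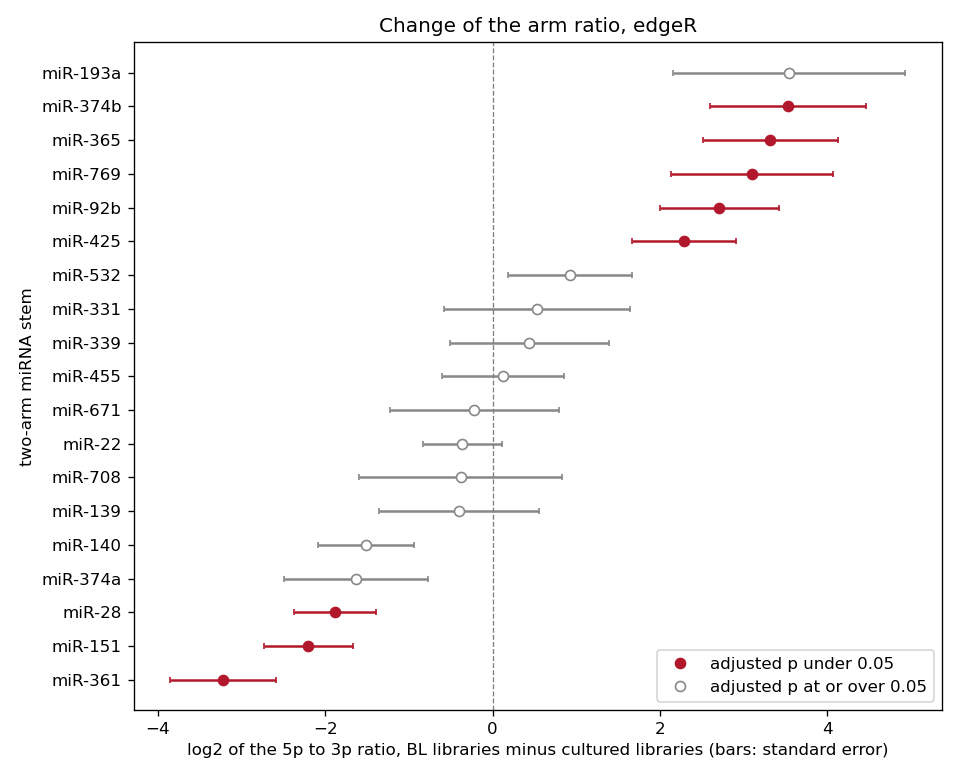
The horizontal axis is the difference in the log2 ratio of 5p to 3p reads, BL libraries minus cultured libraries, from edgeR, with standard errors as bars; filled points passed an adjusted p of 0.05. 19 of the 24 tested stems are drawn, from miR-361 at -3.22 to miR-193a at 3.54, and the 5 stems with an arm without any BL read are left out.

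miR-361, whose gene lies inside CHM on the X chromosome, had the widest range of shares. Its 5p and 3p arms had 19 and 209 reads in BL_1, 598 and 5283 in BL_2, 1947 and 2375 in the ES-like library, 6277 and 3268 in PEBs, and 2019 and 3576 in PFFs. The 5p share was 8.33% in BL_1 (5.09 to 12.7%), 10.2% in BL_2 (9.41 to 11%), 45.0% in the ES-like library (43.6 to 46.5%), 65.8% in PEBs (64.8 to 66.7%) and 36.1% in PFFs (34.8 to 37.4%). The BL values lay close together, at a gap of 1.84 percentage points, and far below the cultured ones, and PEBs were the only library led by the 5p arm. The ratio of 5p to 3p reads was 9.34 times lower in BLs than in the cultured libraries (log2 -3.22, standard error 0.63, adjusted p = 0.00183 by edgeR). The call held in 10 of 12 alternatives, with adjusted p from 6.31e-05 to 0.0726, and was lost without BL_1 and without BL_2, where the log2 difference was still -3.08 and -3.40.

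The levels show which arm of miR-361 differed. The 5p arm was at 167 and 215 RPM in BLs and at 306, 396 and 74.6 RPM in ES-like cells, PEBs and PFFs, so the groups overlapped. The 3p arm was at 1837 and 1899 RPM in BLs against 373, 206 and 132 RPM, with no overlap. On the scale of log2(RPM + 1) the BL mean of the 3p arm exceeded the cultured mean by 3.10, and by 3.04 with TMM and 3.38 with DESeq2's size factors. On the same scales the 5p arm differed by -0.14, -0.20 and 0.14. The median over 273 miRNAs was -1.18, -1.20 and -0.92, so that both arms lay above it.

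miR-28, from an intron of LPP in mammals and placed inside that gene by RefSeq, was led by its 3p arm in every library. It had 63 5p and 448 3p reads in BL_1, 1166 and 10991 in BL_2, 2249 and 4274 in the ES-like library, 4920 and 11514 in PEBs, and 15179 and 38017 in PFFs. Its 5p share was 12.3% (9.61 to 15.5%) and 9.59% (9.07 to 10.1%) in BLs, and 34.5% (33.3 to 35.6%), 29.9% (29.2 to 30.6%) and 28.5% (28.2 to 28.9%) in ES-like cells, PEBs and PFFs. The minor arm thus held a smaller share in both BLs than in each cultured library, and the ES-like interval lay above those of PEBs and PFFs. The 5p to 3p ratio was 3.68 times lower in BLs (log2 -1.88, standard error 0.49, adjusted p = 0.0114 by edgeR). The call held in 8 of 12 alternatives and was lost with both limma fits, without BL_2 and without ES-like cells (highest adjusted p 0.0791), with log2 differences from -1.87 to -1.67 in these fits. Again it was the 3p arm whose levels stood apart, with 3939 and 3951 RPM in BLs against 671, 726 and 1404 RPM. The 5p arm had 554 and 419 RPM against 353, 310 and 561 RPM. On the scale of log2(RPM + 1) the 5p and 3p arms differed by 0.29 and 2.16 between BLs and cultured libraries. Both lay above the median of -1.18 over all miRNAs.

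miR-425, which neighbours miR-191 inside DALRD3, was led by its 5p arm. The 3p arm had 4 reads in BL_1, 185 in BL_2, 716 in the ES-like library, 832 in PEBs and 1002 in PFFs, and the 5p arm 119, 2871, 3385, 2930 and 3814. The 5p share was 96.7% (91.9 to 99.1%) and 93.9% (93.0 to 94.8%) in BLs and 82.5%, 77.9% and 79.2% in ES-like cells, PEBs and PFFs, without overlap. The 5p to 3p ratio was 4.90 times higher in BLs (log2 2.29, standard error 0.62, adjusted p = 0.0121 by edgeR), a call that held in 9 of 12 alternatives and not without BL_1, without BL_2 or with limma and 0.5 reads added (highest adjusted p 0.0704), where the log2 difference was 1.96, 2.90 and 2.35. The 5p arm was at 1046 and 1032 RPM in BLs and at 531, 185 and 141 RPM in the cultured libraries. The 3p arm overlapped, with 35.2 and 66.5 RPM in BLs and 112, 52.5 and 37.0 RPM. On the scale of log2(RPM + 1) the 5p and 3p arms differed by 2.11 and -0.31, both above the median of -1.18 over all miRNAs.

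miR-92b, a miRNA of the miR-25 and miR-92 seed family known from embryonic and neural progenitor cells, was led by its 3p arm, and here the minor arm held the larger share in BLs. Its 5p and 3p arms had 26 and 65 reads in BL_1, 285 and 1135 in BL_2, 96 and 1134 in the ES-like library, 139 and 2755 in PEBs, and 60 and 2429 in PFFs. The share of the 5p arm was 28.6% (19.6 to 39.0%), 20.1% (18 to 22.2%), 7.80% (6.37 to 9.45%), 4.80% (4.05 to 5.65%) and 2.41% (1.84 to 3.09%) in that order. No interval of the cultured libraries touched another or those of BLs. The 5p to 3p ratio was 6.54 times higher in BLs (log2 2.71, standard error 0.71, adjusted p = 0.0114 by edgeR), in 9 of 12 alternatives, with the call lost without BL_1, without BL_2 and with limma and 0.5 reads added (highest adjusted p 0.134), where the log2 difference was 2.40, 3.07 and 2.75. Both arms were at higher RPM in BLs. The 5p arm had 229 and 102 RPM against 15.1, 8.77 and 2.22 RPM, and the 3p arm 571 and 408 RPM against 178, 174 and 89.7 RPM.

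miR-151, placed inside PTK2, the gene of focal adhesion kinase, was used mostly from its 3p arm. The 5p arm had 7 reads in BL_1, 104 in BL_2, 1090 in the ES-like library, 1454 in PEBs and 1714 in PFFs, and the 3p arm 582, 13604, 25053, 26294 and 56956. The 5p shares of 1.19% and 0.759% in BLs lay below 4.17%, 5.24% and 2.92% in the cultured libraries. The 5p to 3p ratio was 4.59 times lower in BLs (log2 -2.20, standard error 0.53, adjusted p = 0.00851 by edgeR). The call held in 9 of 12 alternatives, up to an adjusted p of 0.142, and was lost with both limma fits and without BL_2, with log2 differences from -2.07 to -1.71.

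miR-140, a cartilage miRNA from an intron of WWP2, did not pass. Its 5p arm had 22 reads in BL_1, 275 in BL_2, 3452 in the ES-like library, 7413 in PEBs and 10604 in PFFs, and the 3p arm 149, 5604, 14395, 39594 and 39442. The 5p share was 12.9% (8.24 to 18.8%) in BL_1 and 4.68% (4.15 to 5.25%) in BL_2, a wide gap between replicates, and 19.3%, 15.8% and 21.2% in ES-like cells, PEBs and PFFs. The log2 ratio was -1.51 (standard error 0.57, adjusted p = 0.0594 by edgeR), and it passed in 5 of 12 alternatives, with adjusted p from 0.0163 to 0.584. The log2 difference was -2.22 without BL_1 and -0.64 without BL_2. The 5p arm was lower in both BLs, at 193 and 98.8 RPM against 542, 468 and 392 RPM, while the 3p arm overlapped. On the scale of log2(RPM + 1) the arms differed by -1.74 and -0.31, on either side of the median of -1.18 over all miRNAs.

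**Figure D3:**
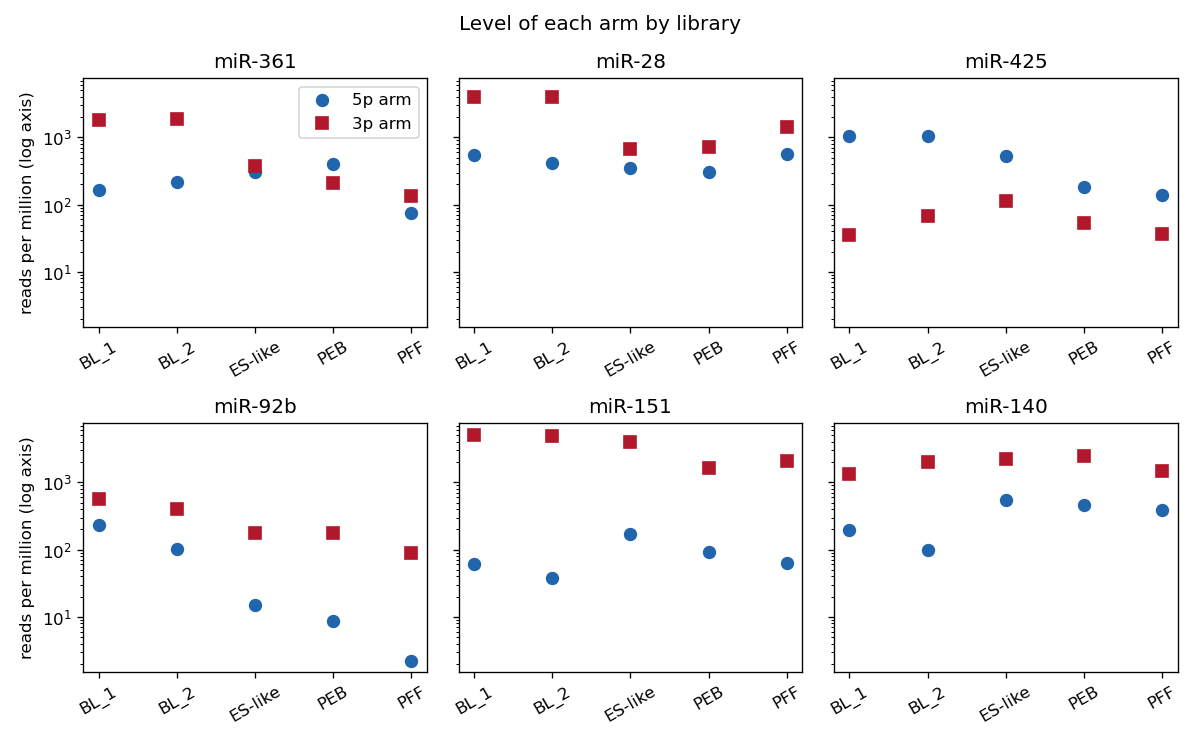
Each panel gives the level of the 5p and the 3p arm of a stem in RPM, on a log axis, in the 5 libraries. The 3p arms of miR-361 and miR-28 and the 5p arm of miR-425 are highest in BL_1 and BL_2, while their other arms overlap between BLs and the cultured libraries.

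For all 8 stems with 50 reads in every library, shares were also compared without a test. The 5p shares of the 2 BL and the 3 cultured libraries did not overlap for 7 of the 8, all but miR-532, where 73.7% of the 19 such stems in the table did not. The 5p share was lower in BLs for 5 (42.1% of all) and higher for miR-92b and miR-425 (31.6% of all). For miR-22 the gap was within the intervals, and for miR-140 the interval of BL_1 included the PEB share. BL replicates differed by a median of 2.29 percentage points over the 8, and by at most 8.5 points, for miR-92b. With BL_2 alone for BLs, 20 stems could be compared and 14 lay outside the cultured libraries, against 72.2% of 54 stems. An interval wholly outside the span of both BL intervals was found for 5 of 8 stems in the ES-like library (57.9% of all), 5 of 8 in PEBs (52.6%) and 7 of 8 in PFFs (63.2%). A shift of at least 10 percentage points from the BL mean was seen for 5 of 8 stems in the ES-like library, 4 in PEBs and 5 in PFFs, where 42.1%, 42.1% and 47.4% of all stems shifted as far. The median shift from BLs was 11.7, 12.2 and 14.3 points for the 8 stems, and 4.95, 7 and 2.36 points for the 19. miR-28, miR-92b, miR-361 and miR-425 shifted by 10 points in all 3, and miR-140 in ES-like cells and PFFs.

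Calls on miR-374b, miR-769, miR-126 and miR-365 were made on stems with fewer than 50 reads in BL_1. miR-374b, within the X-linked non-coding gene known as Ftx in other mammals, had 17 5p and 0 3p reads in BL_1 and 1120 and 5 in BL_2, against 195, 213 and 412 3p reads and 2613, 4548 and 11453 5p reads in ES-like cells, PEBs and PFFs. Its 5p share was 99.6% (99 to 99.9%) in BL_2 and 93.1%, 95.5% and 96.5% in the cultured libraries. The log2 ratio was higher by 3.53 in BLs (standard error 0.93, adjusted p = 0.0114 by edgeR), and the call held in 7 of 11 alternatives, with adjusted p up to 0.903 and losses with both limma fits (log2 2.08 and 0.18), without BL_2 and without ES-like cells (3.25). The 3p arm was at 1.80 RPM in BL_2 and at 30.6, 13.4 and 15.2 RPM in the cultured libraries.

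miR-769 had 15 5p and 0 3p reads in BL_1 and 303 and 6 in BL_2, and 5p shares of 98.1% (95.8 to 99.3%) in BL_2, 88.3% in the ES-like library, 82.6% in PEBs and 89.1% in PFFs. The log2 ratio was 3.10 higher in BLs (standard error 0.97, adjusted p = 0.0256 by edgeR). This held in 6 of 11 alternatives, up to an adjusted p of 0.594, and failed when BL_1, BL_2, ES-like cells or PEBs were left out (log2 2.92, 3.23 and 2.84 without BL_1, ES-like cells and PEBs) and with limma and 5 reads added (log2 0.69).

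miR-126, the endothelial miRNA known from an intron of EGFL7, had no 5p read in BLs, with 12 and 124 3p reads. The cultured libraries had 301, 203 and 141 5p reads and 8248, 4550 and 4363 3p reads in ES-like cells, PEBs and PFFs, with 5p shares of 3.52%, 4.27% and 3.13%. The 0 of 124 reads in BL_2 allow a share of up to 2.42%, with an exact upper bound of 2.93% that reaches the interval of PFFs (2.64 to 3.68%), and the 12 reads of BL_1 allow up to 25%. The adjusted p was 0.0372 by edgeR, and from 0.0327 to 0.715 in the alternatives, of which 5 of 11 passed. Losses came with DESeq2, with both limma fits and without BL_2, ES-like cells or PEBs.

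miR-365 was listed with its 3p arm at 2 precursors and the 5p arm at only 1 of them, and the 3p counts were equal at both. Summed over precursors, the 5p share was 12.1% in BL_2 (176 of 1450 reads), 0.616% in the ES-like library, 0.987% in PEBs and 1.78% in PFFs. On the precursor with both arms it was 21.6% (18.9 to 24.6%), 1.22%, 1.95% and 3.49% in the same order of libraries, so the shares were higher and kept their order. BL_1 had 1 5p read. The log2 ratio was higher by 3.32 in BLs (standard error 0.81, adjusted p = 0.00851 by edgeR), and 10 of 11 alternatives passed, all but the one without BL_2 (log2 2.07, adjusted p = 0.725; lowest of the alternatives 0.00129). Its 5p arm was at 8.79 RPM in BL_1 and 63.3 RPM in BL_2 against 1.73, 2.15 and 13.7 RPM, so BL_1 lay below PFFs.

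miR-193a, the neighbour of a miR-365 gene, was led by its 5p arm. It had 25 5p and 0 3p reads in BL_1, 579 and 9 in BL_2, and 5296 and 162 in PFFs, with 5p shares of 98.5% in BL_2 and 97.0% in PFFs. In ES-like cells and PEBs only 31 and 49 reads were counted, with 5p shares of 61.3% (42.2 to 78.2%) and 79.6% (65.7 to 89.8%). The test of BLs did not pass (log2 3.54, standard error 1.39, adjusted p = 0.0667 by edgeR), but it passed with no filter on low counts and without PFFs. In level, its 5p arm was at 220 and 208 RPM in BLs and 196 RPM in PFFs against 2.98 RPM in the ES-like library and 2.46 RPM in PEBs.

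Among the cultured libraries, PEBs were compared with the ES-like cells from which they were made. A shift of at least 10 percentage points was seen for 3 of 22 stems (12.5% of all): miR-361, miR-345 and miR-671. Between ES-like cells and PFFs 0 of 22 shifted so far (9.84% of all), the largest difference being 9.76 points. Between PEBs and PFFs 4 of 23 did (16.1% of all): miR-361, miR-345, miR-671 and miR-545. The intervals of miR-545 overlapped, at 5.47 to 22.8% in PEBs and 0.63 to 5.78% in PFFs. The median shift of the stems was 2.74, 3.17 and 2.32 points in these pairs, and 0.868, 1.15 and 1.23 points over all stems with both arms named.

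The leading arm differed between libraries for 3 of 24 stems with 50 reads in at least 2 libraries, against 11.8% of all, and for 2 of the 3 the intervals lay on both sides of 50%. They were miR-361 and miR-671, and PEBs were the library apart in both. Without PEBs only miR-331 was left. miR-671 had 283 5p and 198 3p reads in the ES-like library, 319 and 401 in PEBs, and 1225 and 715 in PFFs. Its 5p share was 58.8% (54.3 to 63.3%), 44.3% (40.6 to 48.0%) and 63.1% (61.0 to 65.3%), and 56.7% (43.2 to 69.4%) on 60 reads in BL_2. The PEB interval was below 50% and those of ES-like cells and PFFs above it. In levels, the 3p arm stayed between 25.3 and 31.1 RPM in the cultured libraries while the 5p arm was at 20.1 RPM in PEBs and at 44.4 and 45.2 RPM in ES-like cells and PFFs. BLs did not differ detectably from the cultured libraries (log2 -0.22, standard error 1.01, adjusted p = 1 by edgeR).

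miR-331, placed inside VEZT, had 38 5p and 33 3p reads in BL_2, a share of 53.5% (41.3 to 65.5%) that included 50%. The cultured libraries were led by the 3p arm, with 5p shares of 42.6% (38.4 to 46.9%), 41.2% (38.2 to 44.3%) and 33.8% (31.4 to 36.2%) in ES-like cells, PEBs and PFFs. The change of leading arm is thus within counting error. The test of BLs gave log2 0.53 (standard error 1.11, adjusted p = 0.89 by edgeR).

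miR-345 was low and led by its 3p arm. Its counts were equal at both of its precursors, and on a single precursor it had 10 5p and 49 3p reads in the ES-like library, 7 and 169 in PEBs, and 82 and 323 in PFFs. Its 5p arm held 16.9% (8.44 to 29%), 3.98% (1.61 to 8.02%) and 20.2% (16.4 to 24.5%) of the reads, lowest in PEBs. BL_2 had 0 of 16 5p reads, which allows a share of up to 18.8%, with an exact upper bound of 20.6% that includes the shares of all 3 cultured libraries.

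**Figure D4:**
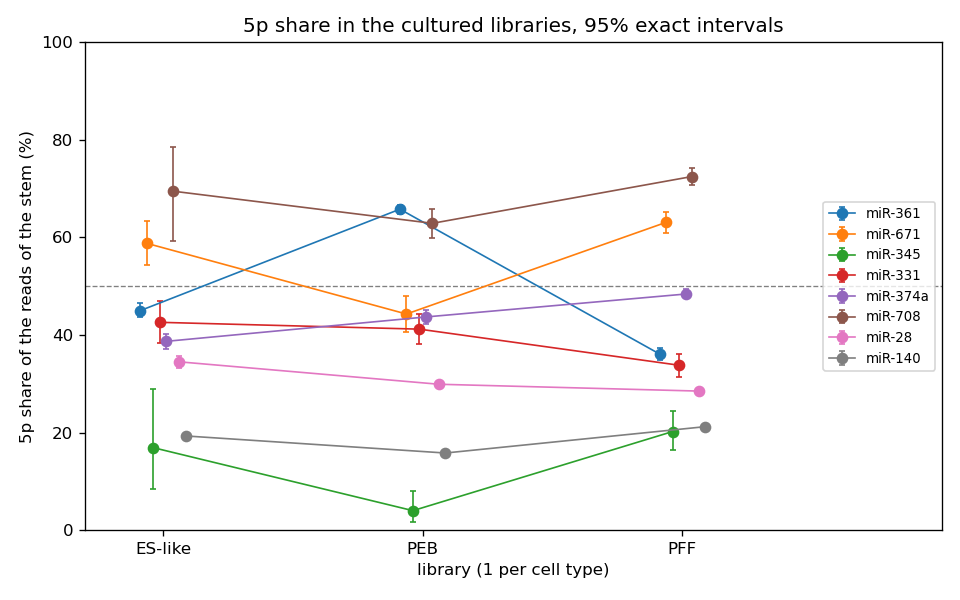
The vertical axis is the 5p share in percent in the 3 cultured libraries, 1 per cell type, for 8 stems, with 95% exact intervals as bars; those of miR-345 are from the reads of a single precursor. PEBs are the highest point of miR-361 (65.8%) and the lowest of miR-671 (44.3%), miR-345 (3.98%) and miR-708 (62.9%).

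The 3 stems of the X-linked Ftx region, where RefSeq places miR-374a next to miR-545 and miR-374b next to miR-421 inside the same non-coding gene, differed in arm use. miR-374b was used from its 5p arm, miR-545 from its 3p arm and miR-374a from both. miR-374a had 71 5p and 178 3p reads in BL_2, 1427 and 2262 in the ES-like library, 1805 and 2327 in PEBs, and 4774 and 5080 in PFFs. Its 5p share was 28.5% (23 to 34.6%), 38.7% (37.1 to 40.3%), 43.7% (42.2 to 45.2%) and 48.4% (47.5 to 49.4%), each interval apart from the next. BL_1 had 10 reads, all on the 3p arm. The difference of BLs did not pass (log2 -1.63, standard error 0.86, adjusted p = 0.188 by edgeR; 0 of 11 alternatives passed). miR-545 had no read in BLs, 3 5p and 42 3p reads in the ES-like library, 8 and 57 in PEBs, and 4 and 170 in PFFs.

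miR-708, inside TENM4, is known to share the seed of its 5p arm with miR-28-5p, and was led by that arm. It had 66 5p and 29 3p reads in the ES-like library, 670 and 396 in PEBs, and 1713 and 649 in PFFs, with 5p shares of 69.5% (59.2 to 78.5%), 62.9% (59.9 to 65.8%) and 72.5% (70.7 to 74.3%). BL_2 had 46 reads, 69.6% of them 5p (54.2 to 82.3%). miR-28 thus gave mainly its 3p arm and miR-708 mainly its 5p arm in each of these libraries. miR-455, inside the collagen gene COL27A1, had 5p shares of 89.4% in BL_2, 92.6% in the ES-like library, 93.2% in PEBs and 86.1% in PFFs. PFFs were lowest, with an interval of 85.5 to 86.7% that did not reach those of ES-like cells (92.0 to 93.2%) or PEBs (92.6 to 93.8%).

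Of the tissue-restricted stems, miR-139, inside PDE2A, was led by its 5p arm with shares of 92.4%, 97.1%, 92.8% and 91.8% in BL_2, ES-like cells, PEBs and PFFs and overlapping intervals. Both arms were higher in BLs, with 176 and 123 RPM of the 5p arm against 10.7, 10.6 and 4.99 RPM in the cultured libraries, and 17.6 and 10.1 RPM of the 3p arm against at most 0.820 RPM. The BL_1 values rest on 20 5p and 2 3p reads, and those of BL_2 on 342 and 28. In BL_1, 3 reads make 26.4 RPM, so its 3p level is not a measured size. miR-202, known from the gonads, was counted almost only in BLs, with 5 and 103 5p reads and 2 and 18 3p reads, and a 5p share of 85.1% in BL_2 (77.5 to 90.9%). The cultured libraries had from 3 to 5 reads of it. miR-885, inside the neural gene ATP2B2, reached at most 20 reads in any library, so no share was counted for it.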

How the data were processed

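Small RNA reads of 5 libraries were deposited by the authors as raw counts per mature miRNA and precursor. Per the submitters' notes and methods, the authors trimmed reads with Cutadapt 1.10, aligned them with Bowtie 1.1.1, used the genome build Sscrofa10.2 and called known miRBase names with miRDeep2. HTSeq 0.6.1p1 and SAMtools 1.2 are named as well. How reads matching several precursors were counted is not given in the sources used here. Counts of a name were summed over precursors, and the read totals behind RPM over all names and precursors. Counts of miR-345, miR-676 and miR-365-3p were equal at both precursors. A read counted at each precursor enters these sums and totals more than once. Arm ratios were tested in edgeR 4.0.16 (R 4.3.3) on 10 columns, 5p and 3p counts of each library, with terms for library, arm and arm by group. Adjusted p-values cover all 70 stems tested, and the test was tried on simulated data. DESeq2 1.42.0, limma 3.58.1, TMM, other filters, thresholds, pseudocounts and precursor handling, and omission of libraries were alternatives. All stems chosen by the name rule are accounted for. A stem entered the test with at least 10 reads in at least 3 libraries. Described in full are those with 50 reads in every library, changes of leading arm, the 5 largest ranges and calls. The stems and lists were chosen with earlier results of these data known. Neighbouring genes are from RefSeq (Sscrofa11.1), where 25 of 26 stems matched. Authors' normalized values, predicted loci and sequence features were not analysed here. Python 3.11.15 and scipy 1.17.1 were used.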

Additional observations from a re-analysis of the deposited data

How the results depend on the processing

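In the comparison of BLs with the cultured libraries, leaving out 1 library at a time gave from 0 to 26 called stems of all tested and from 0 to 10 of the stems examined, against 20 and 9. Both were 0 without BL_2, and they were 12 and 6 without BL_1 and 12 and 5 without ES-like cells. A fit of its own on the 19 stems that reached 50 reads in each of the 5 libraries called 12. limma with 0.5 reads added called 5 of the 24 stems examined (14 of all 70) and with 5 reads added 6 (18 of all 70). Both lists included miR-218, which had no 3p read in any library, and miR-545, which had no read of either arm in BLs. In the comparison of pluripotent with differentiated libraries, leaving out 1 library gave from 0 to 12 called stems and from 0 to 5 of those examined, with the upper values without ES-like cells. A lone library left in a group was assumed to vary like the others.

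Among the stems described in full, the differences of miR-331, miR-671 and miR-126 changed sign, of which only miR-126 was a call. The other tested stems were not followed for changes of sign. miR-331 came to -0.06 with limma and 0.5 reads added and, leaving out 1 library, ranged from -9.13 (without BL_2, where BLs had a single read, so that this is no measured size) to 0.84 (without BL_1), miR-671 ranged from -0.91 to 0.11 (0.06 without BL_1 and 0.11 without PFFs), and miR-126 to 1.48 with limma and 5 reads added. The cause of the other changes was not tested.

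The minimum of reads changed which stems were counted. With 20 reads, 6 stems were led by the 5p arm in BL_1, the median leading share was 96.7% in BL_1 and 91.8% in PFFs, and 1 stem shifted by 10 points between ES-like cells and PFFs. With 200 reads, 1 stem was led by 5p in BL_1, and the median leading share was 98.8% in BL_1, 95.3% in BL_2, 94.8% in PEBs and 92.8% in PFFs. The shifts of BLs from ES-like cells, PEBs and PFFs then numbered 2 each, the stems outside the BL span 3, 3 and 4, and the stems without overlap 4, of the 5 that reached 200 reads in every library. Over all stems 8 of 12 did not overlap. With a threshold of 5 points, 6, 7 and 9 stems shifted between ES-like cells and PEBs, ES-like cells and PFFs, and PEBs and PFFs. With 20 points, the shifts from BLs numbered 2, 1 and 2 in that order, with 1 each between ES-like cells and PEBs and between PEBs and PFFs. Without BL_1, more stems were deep enough, and from 8 to 10 shifted from BLs. Outside the BL interval lay 12, 12 and 13 in ES-like cells, PEBs and PFFs. For the counts in this paragraph, shares over all stems were computed only for overlap. The counts of shifts, of stems outside the BL span and of leading arms thus have no background beside them. Of the 20 stems compared for overlap, 14 did not overlap, against 72.2% of 54 over all stems. Without PEBs 1 stem changed its leading arm. The settings for the span without BL_1 and for the overlap were chosen after seeing the data. No paired analysis was possible because each cultured cell type had 1 library.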
